A study of Mus musculus with 12 samples.

Results

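RNA sequencing compared mouse circumvallate papilla (CVP) organoids labelled Foxe1 knock-out with wild type CVP organoids. The comparison used 6 of the 12 libraries of the series: 4 knock-out libraries, from clones 2.9 and 2.10 in duplicate, and 2 wild type libraries. The wild type libraries are told apart by number only and were taken as a pair of duplicates. The other 6 libraries came from foliate papilla (FoP) organoids. They entered the scaling of the libraries and the estimate of spread within groups, but none of the comparisons. Of the 55367 genes in the count table, the 16594 genes with 10 or more counts in at least 2 of the 6 CVP libraries were described. The knock-out clones are labelled Foxe1 knock-out with genetic modification as the treatment; the wild type libraries have no clone number. The source of all 6 is tongue, and how the Foxe1 gene was altered, the animals' age and sex and the stage of culture at harvest are not given in the sources used here.

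Foxe1 encodes a transcription factor of the forkhead family, studied for its role in the developing thyroid and palate. The circumvallate papilla is the large taste papilla at the back of the tongue, and the ducts of minor salivary glands, the von Ebner glands, open into its trench. Organoids are self-organising epithelial cultures grown from tissue stem cells, in this tissue from Lgr5+ cells, and here the question was how loss of Foxe1 changed the cell fates that these cells take. Salivary gland cells secrete antimicrobial proteins and mucins, lingual keratinocytes build keratins and a cornified envelope, and basal cells hold the epithelium to its matrix through hemidesmosomes and laminins.

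Each clone, and wild type, was taken as 1 culture sequenced in duplicate, so duplicates of a clone are not separate knock-outs and adjusted p-values measure the spread between these libraries, part of which may be technical. Because no library is labelled as a wild type clone, the genotype and the derivation of a clone cannot be told apart. The same holds for any handling that the clones shared and wild type did not. The Foxe1 transcript itself was present in every library. It gave 23.7 and 22.7 CPM in clone 2.9, 7.32 and 8.45 CPM in clone 2.10, and 15.3 and 15.9 CPM in wild type, where CPM, the usual per-library unit, is the count relative to the library's TMM-scaled total. Clone 2.9 lay above wild type and clone 2.10 below it, with no overlap, so the level of the transcript did not check the label, and no value for the altered part of the gene was at hand. The log2 fold changes were 0.57 ± 0.09 in clone 2.9 (adjusted p = 0.000174) and -0.98 ± 0.10 in clone 2.10 (adjusted p = 1.72e-06). Over all 4 knock-out libraries the difference was -0.01 ± 0.52 (adjusted p = 0.993). The test, here and below, was edgeR's quasi-likelihood test with Benjamini-Hochberg adjustment over all 16594 genes.

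Totals were 61561428 to 64493571 counts in the knock-out libraries, against 71615759 and 73568645 in wild type, and 21980 to 22602 genes had at least 1 count. The first principal component, with 63.1% of the variance, separated knock-out from wild type, and the second, with 17.6%, separated the clones. The median absolute log2 difference between libraries was 0.32 to 0.44 for knock-out against wild type, 0.14 to 0.18 for clone against clone and 0.11 to 0.15 within a pair of duplicates. All 8 epithelial markers fixed for the check, such as Epcam and Cdh1, were detected. The immune markers Ptprc, Adgre1 and Tyrobp, the fibroblast markers Lum and Dpt, the taste markers Gnat3 and Car4 and the endothelial marker Cldn5 had no count in any CVP library. Other markers of these lists were detected: the macrophage genes Lyz2 and Cd68 reached 0 and 153 counts in a knock-out library, against 2149 and 986 in a wild type library, and the fibroblast marker Pdgfra and the endothelial marker Pecam1 reached 349 and 180 counts in a knock-out library, against 79 and 52 in a wild type library. The taste markers Entpd2, Tas1r3 and Pou2f3 reached 1248, 69 and 47 counts in a knock-out library, against 1567, 183 and 20 in a wild type library. In bulk RNA, fewer cells of a type and less RNA per cell cannot be told apart.

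Forkhead proteins bind a core that is written TAAACA on one strand and TGTTTA on the other, so the promoters of the 12 genes that fell most and the 12 that rose most were searched for it. The window was RefSeq's, from 250 bases before to 50 bases after a gene's start in the GRCm38.p6 build. Of these 24 genes 15 had a window, 17 windows in all, and 3 genes held the core. The first was Ifitm1, an interferon-induced membrane protein gene that fell (chr7:140967826-140968125, + strand, core 35 bases after the start). The others were Fetub, a secreted cystatin-family protein gene that fell (chr16:22919972-22920271, + strand, the second of its windows, core 236 bases before the start), and Bbox1, a gene of carnitine synthesis that rose (chr2:110305676-110305975, - strand, core 116 bases before the start). They are printed 5′ to 3′ along the gene's strand with the core in capitals.
Ifitm1: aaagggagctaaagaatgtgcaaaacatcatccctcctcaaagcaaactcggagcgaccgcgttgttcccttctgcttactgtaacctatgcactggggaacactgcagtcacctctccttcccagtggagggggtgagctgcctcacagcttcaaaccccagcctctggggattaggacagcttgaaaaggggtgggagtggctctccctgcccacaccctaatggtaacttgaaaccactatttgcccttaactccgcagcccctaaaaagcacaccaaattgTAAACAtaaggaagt
Fetub: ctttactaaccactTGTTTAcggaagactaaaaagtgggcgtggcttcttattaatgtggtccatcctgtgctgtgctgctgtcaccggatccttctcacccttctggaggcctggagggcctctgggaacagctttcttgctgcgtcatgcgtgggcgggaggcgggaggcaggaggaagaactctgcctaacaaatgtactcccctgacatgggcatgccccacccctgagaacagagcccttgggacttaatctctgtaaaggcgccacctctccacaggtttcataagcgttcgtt
Bbox1: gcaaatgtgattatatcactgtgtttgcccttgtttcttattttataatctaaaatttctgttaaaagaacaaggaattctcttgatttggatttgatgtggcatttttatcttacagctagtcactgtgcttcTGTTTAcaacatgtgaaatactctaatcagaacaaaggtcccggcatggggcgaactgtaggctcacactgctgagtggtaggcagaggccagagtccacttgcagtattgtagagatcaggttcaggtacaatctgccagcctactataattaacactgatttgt

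The core stood in 13.4% of all 32851 windows and in 8.75% of the 14602 windows of the genes described. Its share was 8.67% among windows of genes lower in both clones and 9.01% among those of genes higher in both clones. Among genes that also passed 2-fold it was 11.3% of 611 windows of lower genes and 9.38% of 821 windows of higher genes. A match describes these letters in this window only.

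Of the 16594 genes, 4046 (24.4%) were higher in knock-out and 3919 (23.6%) were lower at an adjusted p under 0.05, together 48% of those tested. Of these 7965 genes, 6668 (40.2% of those tested) also passed in the same direction in both clones, 3356 higher (20.2%) and 3312 lower (20%). In all, 3426 genes (20.6%) passed higher and 3372 (20.3%) passed lower in both clones, and in 62.9% of genes the 4 knock-out libraries lay beyond both wild type libraries (32.3% above, 30.6% below). Of the called genes, 483 passed in clone 2.9 alone, 686 in clone 2.10 alone and 128 in neither. These are 2.91%, 4.13% and 0.771% of those tested. At 0 of the called genes did the log2 fold changes of the clones differ in sign. A call rests on the mean of both clones against the spread of their libraries. Genes with the clones on opposite sides of wild type can therefore hardly be called, and that 0 does not measure agreement. Both clones were set against the same wild type libraries, so their fold changes share that error. Clone by clone, 8071 genes (48.6%) differed from wild type in clone 2.9, 24.3% higher and 24.3% lower. In clone 2.10 it was 8491 (51.2%), 26.1% higher and 25.1% lower, and 71 genes (0.428%) passed in both clones in opposite directions. The fold change was past 2-fold for 1108 of the genes called higher (6.68% of those tested) and 837 of those called lower (5.04% of those tested). It was past 2-fold in both clones for 802 and 615 of them (4.83% and 3.71% of those tested). The number called fell to 5272 without wild type replicate 1, to 3452 with duplicates summed into 1 sample per culture and to 516 when tested against a 2-fold change.

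**Figure D1:**
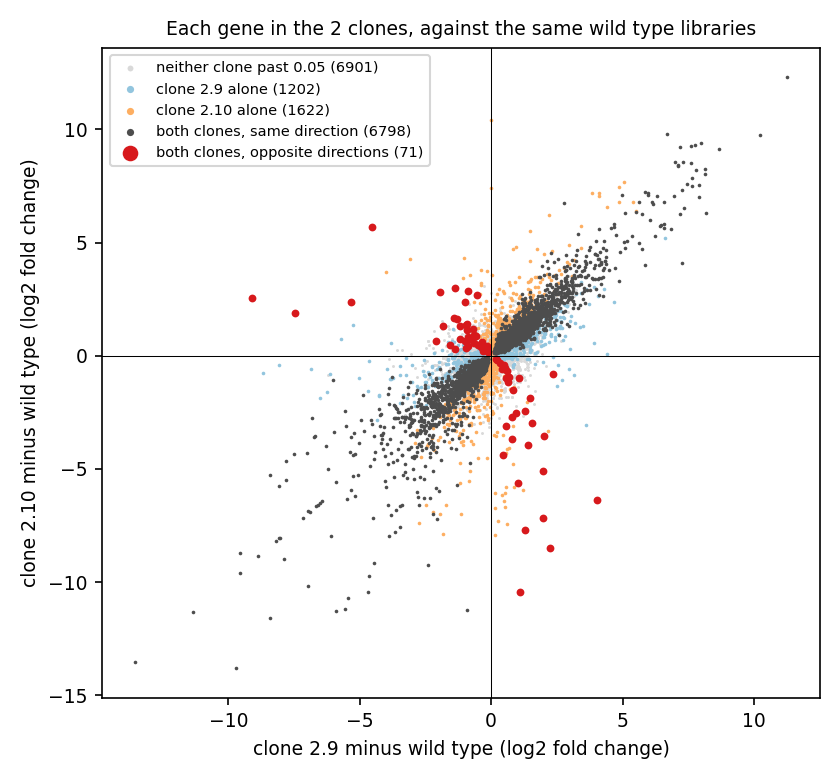
Log2 fold change of each of the 16594 genes in clone 2.9 (horizontal) and clone 2.10 (vertical), each against the same 2 wild type libraries; dark points passed in both clones in the same direction, red points in opposite directions. Clone 2.9 alone passed at 1202 genes (7.24%), clone 2.10 alone at 1622 (9.77%) and neither at 6901 (41.6%). Most dark points follow the diagonal, and the 71 red points lie in the upper left and lower right.

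The 12 largest falls included Ifitm1, Msln, Gp2, Pigr, Duox2, Cd34, Crispld2, Ces1f, Ces1d, Fetub and Sprr2a3, with adjusted p from 9.43e-07 to 0.0217. They were ranked by rule among genes that passed in both clones with mean log2 CPM of 2 or more. The rule also required all 4 knock-out libraries beyond both wild type libraries. It was used as well for the rises, the gains and losses in reads and the transcription factors below. Lack of overlap at these genes is therefore no separate result. Pigr, the receptor that carries IgA and IgM across epithelium into saliva, gave 6.34 and 4.78 CPM in clone 2.9, 4.68 and 5.87 CPM in clone 2.10, and 105 and 142 CPM in wild type. Pigr changed by log2 -4.51 ± 0.73 (adjusted p = 0.00107). Its 4 knock-out libraries lay close together, and the fall was -4.47 in clone 2.9 and -4.55 in clone 2.10 on the log2 scale. Gp2, a membrane glycoprotein of zymogen granules, gave 4.90 and 6.64 CPM in clone 2.9, 1.10 and 0.742 CPM in clone 2.10, and 107 and 156 CPM in wild type. Gp2 changed by log2 -5.30 ± 0.85 (adjusted p = 0.00104). Msln, mesothelin, a surface glycoprotein, gave 5.22 and 7.11 CPM in clone 2.9, 1.22 and 2.10 CPM in clone 2.10, and 375 and 464 CPM in wild type. Msln changed by log2 -6.75 ± 0.72 (adjusted p = 0.000105). Gp2 and Msln were lower in both clones and lower in clone 2.10 than in clone 2.9. The clone difference was log2 -2.64 ± 0.36, adjusted p = 0.00444 for Gp2, and log2 -1.90 ± 0.36, adjusted p = 0.0290 for Msln.

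Duox2, the dual oxidase that makes hydrogen peroxide at the apical surface of thyroid and salivary duct cells, gave 2.23 and 1.57 CPM in clone 2.9, 2.72 and 5.87 CPM in clone 2.10, and 60.1 and 65.5 CPM in wild type. Duox2 changed by log2 -4.34 ± 1.01 (adjusted p = 0.00740). Both clones fell. The gene of its maturation factor, Duoxa2, fell too (log2 -4.70 ± 1.04, adjusted p = 0.00556; -5.37 in clone 2.9 and -4.25 in clone 2.10). Ces1f and Ces1d are carboxylesterases whose gene family has close copies that may share reads. Ces1f averaged 6.25 CPM in clone 2.9, 1.10 CPM in clone 2.10 and 47.4 CPM in wild type. Ces1d averaged 33.7 CPM in clone 2.9, 11.4 CPM in clone 2.10 and 248 CPM in wild type. Clone 2.10 lay below clone 2.9 at both genes (log2 -2.51 ± 0.34, adjusted p = 0.00384 for Ces1f and log2 -1.57 ± 0.23, adjusted p = 0.00852 for Ces1d). The sialomucin Cd34 fell in both clones (log2 -3.92 ± 0.21; -3.96 in clone 2.9 and -3.89 in clone 2.10). So did the secreted LPS-binding protein Crispld2 (log2 -3.80 ± 0.34; -4.20 in clone 2.9 and -3.49 in clone 2.10) and Fetub (log2 -3.28 ± 0.30; -3.09 in clone 2.9 and -3.49 in clone 2.10). Ifitm1 gave 0.573 and 1.24 CPM in clone 2.9, 0.331 and 0.510 CPM in clone 2.10, and 186 and 243 CPM in wild type. Ifitm1 changed by log2 -8.35 ± 1.11, with -7.89 in clone 2.9 and -8.99 in clone 2.10. Its relatives Ifitm2 and Ifitm3 are close copies that may share reads. The small proline-rich gene Sprr2a3, one of a cluster of near-identical cornified envelope genes, averaged 16.5 CPM in clone 2.9, 1.04 CPM in clone 2.10 and 81.9 CPM in wild type. Clone 2.10 lay below clone 2.9 (log2 -3.99 ± 0.16, adjusted p = 1.50e-08). Sprr2a3 lost its call without wild type replicate 1 or 2 (adjusted p = 0.0821 and 0.0614). Duox2 and Duoxa2 lost theirs when clone 2.9 was left out whole (adjusted p = 0.0689 and 0.0600).

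The 12 largest rises were Pde3a, Samd5, Spon1, Cytip, Vcam1, Sdk2, Matn4, Scara5, Epdr1, Bbox1, Piezo2 and Cyp26a1, with adjusted p from 1.52e-07 to 0.00714. Pde3a, a phosphodiesterase that breaks down cyclic AMP, gave 23.04 and 21.6 CPM in clone 2.9, 32.1 and 31.2 CPM in clone 2.10, and 1.36 and 0.984 CPM in wild type. Pde3a changed by log2 4.53 ± 0.51 (adjusted p = 7.63e-05). Spon1, an extracellular matrix protein, gave 93.7 and 119 CPM in clone 2.9, 226 and 209.9 CPM in clone 2.10, and 8.99 and 6.75 CPM in wild type. Spon1 changed by log2 4.37 ± 0.52 (adjusted p = 0.000169). Vcam1, an adhesion molecule that binds integrins, gave 74.1 and 55.8 CPM in clone 2.9, 241 and 150.3 CPM in clone 2.10, and 6.64 and 11.5 CPM in wild type. Vcam1 changed by log2 3.85 ± 0.80 (adjusted p = 0.00431). For all of these the 4 knock-out libraries lay above both wild type libraries, as the ranking rule required. Clone 2.10 lay above clone 2.9 by log2 0.50 ± 0.13, adjusted p = 0.0319 for Pde3a, 1.04 ± 0.21, adjusted p = 0.0353 for Spon1 and 1.59 ± 0.29, adjusted p = 0.0279 for Vcam1.

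Matn4, a matrilin of cartilage and other matrices, averaged 18.1 CPM in clone 2.9, 75.9 CPM in clone 2.10 and 4.17 CPM in wild type. The adhesion molecule Sdk2 averaged 8.11 CPM in clone 2.9, 39.2 CPM in clone 2.10 and 1.69 CPM in wild type. Both clones rose at these genes, and clone 2.10 lay above clone 2.9 (log2 2.07 ± 0.14, adjusted p = 1.34e-06 for Matn4 and log2 2.27 ± 0.16, adjusted p = 3.86e-07 for Sdk2). Without wild type replicate 1 the adjusted p of Matn4 was 0.0645. Scara5, a ferritin receptor, averaged 41.7 CPM in clone 2.9, 80.2 CPM in clone 2.10 and 5.92 CPM in wild type. Bbox1, which encodes the last enzyme of carnitine synthesis, averaged 84.9 CPM in clone 2.9, 51.4 CPM in clone 2.10 and 6.80 CPM in wild type. It was the 1 rise of the 12 that was higher in clone 2.9 than in clone 2.10 by the test (log2 -0.73 ± 0.09, adjusted p = 0.000178). Piezo2, a mechanically gated channel, averaged 40.1 CPM in clone 2.9, 33.5 CPM in clone 2.10 and 3.76 CPM in wild type. Cyp26a1, which breaks down retinoic acid, averaged 9.77 CPM in clone 2.9, 11.7 CPM in clone 2.10 and 1.19 CPM in wild type. The clone difference at these genes was log2 -0.26 ± 0.25, adjusted p = 0.701 for Piezo2 and log2 0.26 ± 0.25, adjusted p = 0.694 for Cyp26a1. Samd5 rose in both clones (log2 4.37 ± 0.48; 4.13 in clone 2.9 and 4.58 in clone 2.10). Cytip, which binds the exchange factor cytohesin (log2 4.25 ± 0.47; 3.94 in clone 2.9 and 4.51 in clone 2.10), and the secreted ependymin-related Epdr1 (log2 3.34 ± 0.17; 3.15 in clone 2.9 and 3.51 in clone 2.10) rose in both clones.

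**Figure D2:**
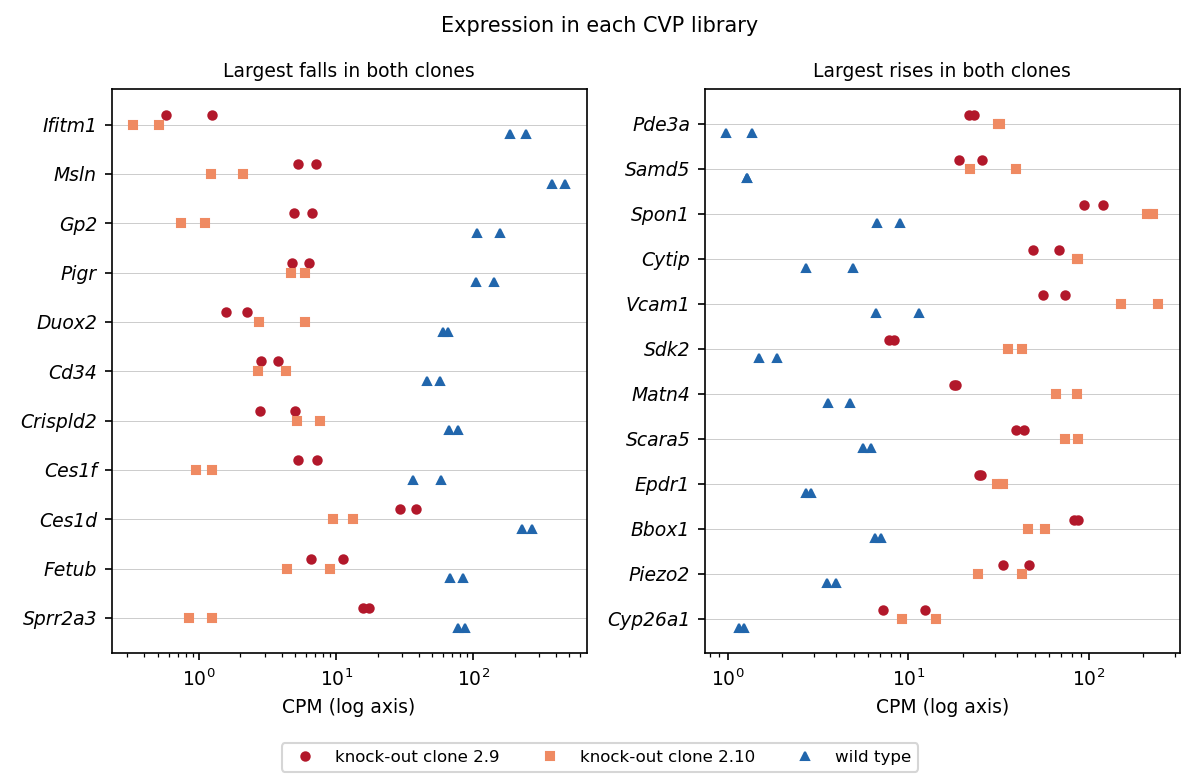
CPM on a log axis in each CVP library for the largest falls (left) and the largest rises (right) named above; circles are clone 2.9, squares clone 2.10 and triangles wild type. For each gene the 4 knock-out points lie on one side of both wild type points, as the ranking rule required. The spread between clones is widest for Sprr2a3 among the falls and for Sdk2 and Matn4 among the rises.

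By number of reads, which reflects transcript length as well as abundance, the largest gains were Krt14, Postn, Thbs1, Krt5, Nkd2, Col17a1, Timp3 and Dsp. Krt14 and Krt5, the keratin pair of basal cells, both rose. Krt14 averaged 4611 ± 771 CPM in knock-out and 1779.6 ± 134 CPM in wild type (SD, n = 4 knock-out and 2 wild type libraries here and below; log2 1.37 ± 0.17). Krt5 averaged 5914 ± 489.8 CPM in knock-out and 3943 ± 88.4 CPM in wild type (log2 0.59 ± 0.11). Col17a1, a hemidesmosomal collagen, rose by 0.81 in clone 2.9 and 0.78 in clone 2.10 on the log2 scale, and the desmosome protein Dsp by 0.69 in clone 2.9 and 0.66 in clone 2.10. The matricellular genes Postn (log2 1.38 ± 0.34) and Thbs1 (log2 1.57 ± 0.12), the metalloproteinase inhibitor Timp3 (log2 1.73 ± 0.12) and the Wnt feedback inhibitor Nkd2 (log2 2.17 ± 0.15) rose in both clones. The largest losses in reads were Gsto1, Eef1a1, Anxa1, Lcn2, Cbr2, Bsg, Eef2 and Ero1l. Lcn2, lipocalin 2, an iron-binding defence protein, averaged 1159.7 ± 493 CPM in knock-out and 2963 ± 415 CPM in wild type (log2 -1.35 ± 0.33; -1.89 in clone 2.9 and -0.96 in clone 2.10). Gsto1, a glutathione transferase, fell (log2 -1.32 in clone 2.9 and -1.65 in clone 2.10), and so did Cbr2, a carbonyl reductase (log2 -1.58 in clone 2.9 and -1.71 in clone 2.10). The translation elongation factor genes Eef1a1, which has processed copies that may share reads, and Eef2 fell in both clones (log2 -0.28 ± 0.10 for Eef1a1 and -0.27 ± 0.09 for Eef2). Anxa1 (log2 -0.71 ± 0.12), the membrane glycoprotein Bsg (log2 -0.94 ± 0.14) and the endoplasmic reticulum oxidase Ero1l (log2 -2.12 ± 0.37) fell in both clones. All 16 genes passed, with adjusted p from 1.01e-06 to 0.0332. Postn and Lcn2 lost their calls without wild type replicate 2 (adjusted p = 0.0685 and 0.0572). So did Eef1a1 without replicate 1 of clone 2.9, of clone 2.10 or of wild type or without wild type replicate 2 (adjusted p from 0.0589 to 0.224), as well as Eef2 without replicate 1 of clone 2.9, of clone 2.10 or of wild type (adjusted p from 0.0630 to 0.277).

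Among 227 transcription factor genes of the families searched, 59 were higher (26%) and 69 lower (30.4%), against 24.4% and 23.6% of all genes. Of these, 47 and 58 passed in both clones (20.7% and 25.6% of the 227 genes, against 20.2% and 20% of all genes). The largest rises by fold were Foxf2, Sox11, Sox5, Dlx5, Nr1h3, Runx3, Id4 and Dlx3. Foxf2, a forkhead gene of mesenchyme and palate, gave 24.2 and 24.1 CPM in clone 2.9, 32.0 and 40.9 CPM in clone 2.10, and 3.76 and 3.22 CPM in wild type. Foxf2 changed by log2 3.12 ± 0.38 (adjusted p = 0.000135). Sox11, a factor of progenitor cells, gave 32.2 and 26.7 CPM in clone 2.9, 30.8 and 22.7 CPM in clone 2.10, and 4.59 and 4.81 CPM in wild type. Sox11 changed by log2 2.58 ± 0.41 (adjusted p = 0.000645). Both rose in both clones, Foxf2 more in clone 2.10 (difference log2 0.59 ± 0.10, adjusted p = 0.00258). The others also passed in both clones (adjusted p from 3.42e-05 to 0.00262 over all 8). They were Sox5, a partner of Sox9 in cartilage (log2 1.71 ± 0.29), the homeobox genes Dlx5 (log2 1.70 ± 0.28) and Dlx3 (log2 0.82 ± 0.18), the oxysterol receptor Nr1h3 (log2 1.33 ± 0.21), Runx3 (log2 1.30 ± 0.16) and Id4, an inhibitor of basic helix-loop-helix factors (log2 0.88 ± 0.11). The homeobox gene Shox2, too low in wild type for that ranking, held 542 and 426 counts in clone 2.9, 1678 and 1279 counts in clone 2.10, and 8 and 0 counts in wild type. For Shox2 the ratio of knock-out over wild type was 266 (135 to 617), with a 95% interval that covers counting error only. Reads of Shox2 were thus plentiful in both clones and nearly absent from wild type.

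The largest falls among transcription factor genes included Sox7, Elf3, Mybl1, Nr1d1, Mycl, Ets1 and Tead4 (adjusted p from 1.86e-06 to 0.000117). Elf3, an ETS factor of differentiated epithelium, gave 66.2 and 82.5 CPM in clone 2.9, 54.3 and 67.7 CPM in clone 2.10, and 215 and 173 CPM in wild type. Elf3 changed by log2 -1.52 ± 0.17; -1.38 in clone 2.9 and -1.67 in clone 2.10. Sox7, an SRY-box factor, gave 3.38 and 3.93 CPM in clone 2.9, 2.87 and 3.14 CPM in clone 2.10, and 13.6 and 15.9 CPM in wild type. Sox7 changed by log2 -2.15 ± 0.25. Elf3 and Sox7 were lower in both clones. Mybl1 (log2 -1.03 ± 0.15), the clock repressor Nr1d1 (log2 -0.99 ± 0.10), Mycl (log2 -0.98 ± 0.08), Ets1 (log2 -0.86 ± 0.08) and the YAP partner Tead4 (log2 -0.82 ± 0.10) fell in both clones.

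Gene lists put these genes beside the rest of their pathways, and each list's counts are read against 24.4% of all genes higher, 23.6% lower and a median log2 fold change of 0.026 over all genes. In the secreted gland proteins, 24 of 50 members were expressed enough to test. Of these 3 were higher and 12 lower, of which 3 and 12 passed in both clones, and the median was -1.04 in clone 2.9 and -0.47 in clone 2.10. Lyz2, lysozyme 2, had 0 counts in every knock-out library against 1108 and 2149 counts in wild type, which is at least 496-fold lower from a floor of 3 counts per library. Reg3g, a C-type lectin that binds bacteria, held 0 and 4 counts in clone 2.9, 0 and 0 counts in clone 2.10, and 1328 and 2584 counts in wild type. Bpifa1, a BPI-fold protein of airway and tongue glands, held 0 and 4 counts in clone 2.9, 2 and 2 counts in clone 2.10, and 1374 and 2176 counts in wild type. Wild type over knock-out, the ratios were 1801 (703 to 6615) for Reg3g and 817 (414 to 1895) for Bpifa1. Lyz2 and Reg3g have close copies. Wfdc18, Amy1, the salivary amylase, and Clu, clusterin, were higher (log2 1.82 ± 0.44, 1.32 ± 0.47 and 0.88 ± 0.17), so the list did not move one way. Its summed level was 8561 and 10529 CPM in clone 2.9, 12249 and 15546 CPM in clone 2.10, and 11728 and 13899 CPM in wild type, and the ranges of knock-out and wild type overlapped. Most of that sum was the iron-binding lactoferrin gene Ltf, with 5875 and 7340.0 CPM in clone 2.9, 8381 and 10784 CPM in clone 2.10, and 6282 and 7394 CPM in wild type (adjusted p = 0.302). Without Ltf the list summed to 2686 and 3189 CPM in clone 2.9, 3868 and 4762 CPM in clone 2.10, and 5447 and 6505 CPM in wild type, lower in every knock-out library than in wild type. With duplicates summed per culture the list had 1 higher and 6 lower. Wfdc18 lost its call without wild type replicate 1 or 2 (adjusted p = 0.0609 and 0.0596). Amy1, which has close copies, kept it, with single libraries left out, only without replicate 2 of clone 2.10 (adjusted p up to 0.162, without wild type replicate 2).

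Mucins and mucous-cell genes had 32 members tested; 2 were higher and 19 lower, of which 2 and 17 passed in both clones. Muc5b, the gel-forming mucin of saliva, held 2 and 4 counts in clone 2.9, 3 and 8 counts in clone 2.10, and 1718 and 3428 counts in wild type. For Muc5b the ratio of wild type over knock-out was 558 (348 to 958). Tff2, the trefoil peptide secreted with mucins, held 2 and 2 counts in clone 2.9, 0 and 4 counts in clone 2.10, and 394 and 837 counts in wild type, a ratio of 283 (143 to 658). Both genes were near the floor in both clones. The membrane mucins Muc4 (log2 -4.40 ± 0.78) and Muc16 (log2 -3.18 ± 0.48) fell in both clones. So did the mucin folding factor Agr2 (log2 -3.11 ± 0.23; -3.14 in clone 2.9 and -3.07 in clone 2.10) and the mucous-cell regulator Spdef (log2 -2.26 ± 0.27; -2.75 in clone 2.9 and -1.90 in clone 2.10). Of the forkhead genes in the list, Foxa2 rose (log2 0.63 ± 0.16; 0.40 in clone 2.9 and 0.83 in clone 2.10; adjusted p = 0.0894 without wild type replicate 1) and Foxa1 fell (log2 -0.53 ± 0.11), each in both clones. The fluid secretion genes split, with 9 of 33 higher and 9 lower (8 and 8 in both clones). The muscarinic receptors Chrm1 (log2 2.88 ± 0.36) and Chrm3 (log2 1.40 ± 0.31), the calcium-gated chloride channel Ano1 (log2 1.11 ± 0.13) and the cotransporter Slc12a2 (log2 0.70 ± 0.12) rose in both clones. The water channel Aqp4 (log2 -3.01 ± 0.59) and the purinergic receptor P2ry2 (log2 -1.60 ± 0.17) fell in both clones. With duplicates summed per culture there were 1 higher and 12 lower among mucin genes, and 4 higher and 3 lower among fluid secretion genes.

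Basal and stem genes went both ways: of 35 tested, 15 were higher and 12 lower, of which 13 and 10 passed in both clones. Lgr5, an R-spondin receptor and the stem cell marker of this tissue, gave 7.27 and 5.32 CPM in clone 2.9, 7.16 and 4.05 CPM in clone 2.10, and 1.08 and 0.970 CPM in wild type. The rise was log2 2.53 ± 0.35 (adjusted p = 7.98e-05) and passed in both clones. The Sox9 gene rose too (log2 0.53 ± 0.10; 0.41 in clone 2.9 and 0.64 in clone 2.10). The stem cell genes Olfm4 (log2 -4.04 ± 0.55), Tnfrsf19 (log2 -5.63 ± 0.75), Ngfr (log2 -2.49 ± 0.32) and Prom1 (log2 -1.66 ± 0.38) fell in both clones. The basal factor gene Trp63 fell by a small amount (log2 -0.34 ± 0.08; -0.36 in clone 2.9 and -0.32 in clone 2.10). Suprabasal and cornified keratinocyte genes were lower at 17 of 40 and higher at 5 (15 and 4 in both clones). Krt4 (log2 -2.91 ± 0.62) and Krt13 (log2 -3.20 ± 0.78), the keratin pair of the lingual surface, and the envelope proteins Ivl (log2 -1.91 ± 0.35) and Sprr3 (log2 -2.75 ± 0.44) fell in both clones. The factor gene Klf4 rose (log2 0.46 ± 0.08; 0.55 in clone 2.9 and 0.36 in clone 2.10). The 8 lingual keratinocyte markers summed to 11.2 and 8.41 CPM in clone 2.9, 4.18 and 6.38 CPM in clone 2.10, and 93.6 and 71.4 CPM in wild type, below wild type in every knock-out library. Of 44 taste cell genes listed, 18 could be tested. Of these 4 were higher and 9 lower, of which 4 and 9 passed in both clones. Otop1, the proton channel of sour taste, held 4 and 9 counts in clone 2.9, 0 and 0 counts in clone 2.10, and 162 and 216 counts in wild type. For Otop1 the ratio of wild type over knock-out was 53.6 (30.9 to 102). The taste receptor genes Tas1r3 (log2 -1.43 ± 0.26) and Tas1r1 (log2 2.23 ± 0.48) moved in opposite directions, in both clones. Leaving out wild type replicate 1 left 10 of the keratinocyte genes lower and 2 higher and ended the call of Krt13 (adjusted p = 0.0609). Leaving out wild type replicate 2 left 9 of the basal and stem genes and 1 of the keratinocyte genes higher. With any single knock-out library left out, 3 keratinocyte genes were higher. With duplicates summed per culture there were 6 higher and 7 lower among basal and stem genes, 1 higher and 9 lower among keratinocyte genes and 1 higher and 5 lower among taste cell genes.

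**Figure D3:**
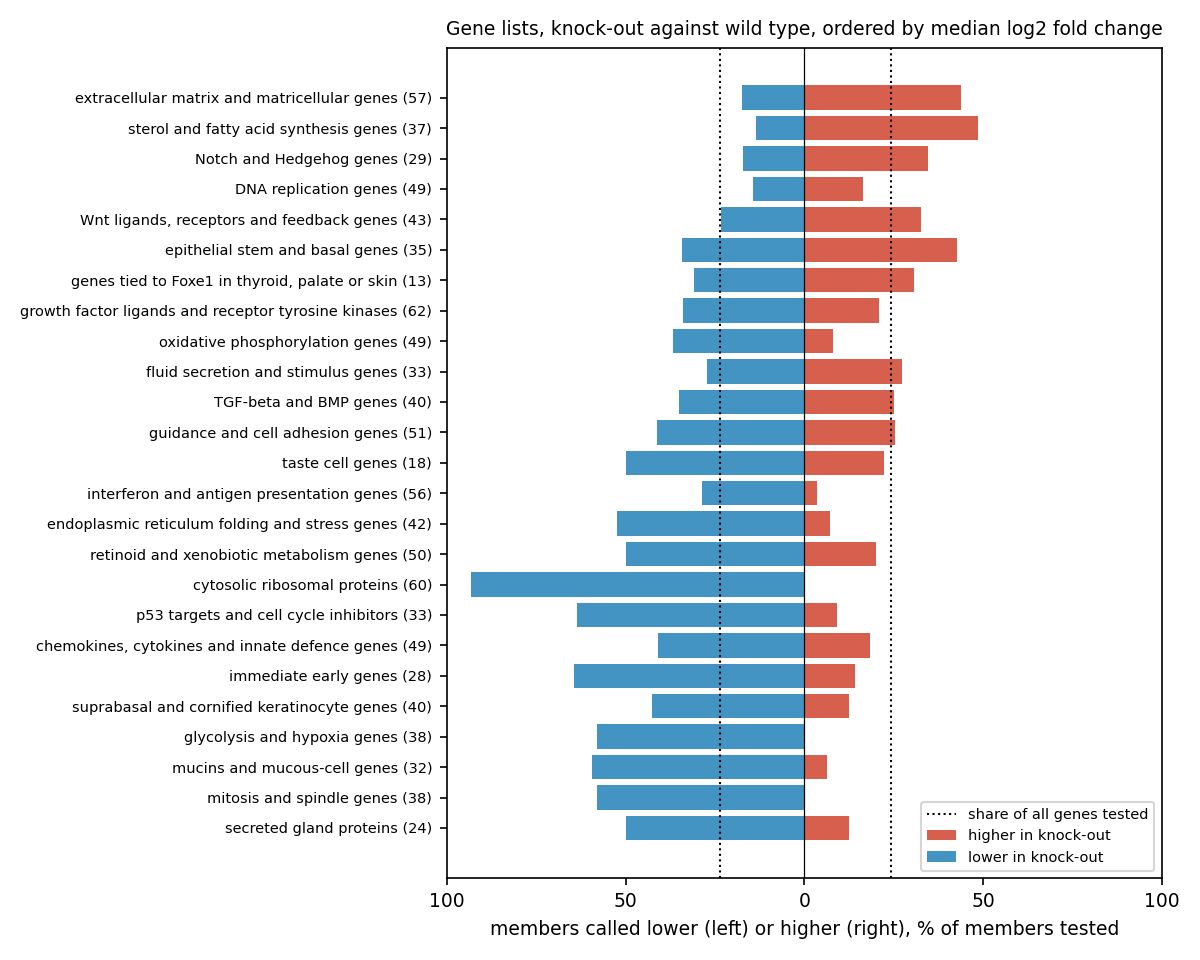
Share of the tested members of each gene list called lower (left, blue) or higher (right, red) in knock-out, in percent, with the number tested in parentheses and lists ordered by median log2 fold change; dotted lines give the 23.6% and 24.4% of all genes. Ribosomal protein genes have the longest bar, 93.3% lower, and sterol synthesis and extracellular matrix genes reach furthest to the right.

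Wnt genes rose at 14 of 43 and fell at 10 (13 and 10 in both clones). Among ligands, Wnt10b rose (log2 3.38 ± 0.82; 2.84 in clone 2.9 and 3.77 in clone 2.10). Wnt7a (log2 -4.60 ± 0.82), Wnt4 (log2 -2.83 ± 0.43) and Wnt6 (log2 -3.09 ± 0.44) fell in both clones. Among feedback inhibitors, Nkd2 and Dkk2 (log2 1.22 ± 0.34) rose, while Notum (log2 -2.49 ± 0.24) fell, in both clones. In the Notch and Hedgehog list 10 were higher and 5 lower, of which 10 and 3 passed in both clones, of 29; the ligand gene Jag1 (log2 0.60 ± 0.09) and the target gene Nrarp (log2 0.65 ± 0.14) were among those higher, and the receptor Notch1 (log2 -0.54 ± 0.08) was lower. Of 40 TGF-beta and BMP genes 10 were higher and 14 lower, of which 9 and 12 passed in both clones. The activin antagonist Fst rose (log2 1.43 ± 0.15) and the latent TGF-beta binding protein gene Ltbp2 fell (log2 -2.47 ± 0.29), in both clones. Growth factor and receptor kinase genes were lower at 21 and higher at 13 of 62 (19 and 11 in both clones). Fgf7, a ligand for the epithelial receptor Fgfr2, held 0 and 2 counts in clone 2.9, 0 and 0 counts in clone 2.10, and 395 and 450 counts in wild type. For Fgf7 the ratio of wild type over knock-out was 778 (215 to 6436). The receptor gene Kit rose (log2 2.94 ± 0.15; 2.85 in clone 2.9 and 3.02 in clone 2.10). The ligand genes Hbegf (log2 -1.84 ± 0.08) and Ereg (log2 -0.86 ± 0.15) and the receptor gene Egfr (log2 -0.51 ± 0.06) fell in both clones. Without wild type replicate 1 the number of Wnt genes higher was 8 and Wnt10b missed the threshold (adjusted p = 0.0532). With either wild type library left out, 3 of the Notch and Hedgehog genes were lower. Summing the duplicates of each culture gave 5 higher and 8 lower for Wnt genes, 4 higher and 2 lower for Notch and Hedgehog genes, 7 higher and 8 lower for TGF-beta and BMP genes and 6 higher and 13 lower for growth factor and receptor kinase genes.

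Extracellular matrix genes were higher at 25 of 57 and lower at 10, with 22 and 8 in both clones. The summed level of the list was 17025 and 19238 CPM in clone 2.9 and 20579 and 20872 CPM in clone 2.10. In wild type it was 12282 and 11148 CPM, below every knock-out library. Much of the higher sum was that of Postn and Thbs1. Postn averaged 3736 CPM in knock-out and 1436 CPM in wild type, and Thbs1 3247 and 1095 CPM. A sum without these genes was not taken. The cartilage proteoglycan Acan held 586 and 352 counts in clone 2.9, 1607 and 656 counts in clone 2.10, and 12 and 18 counts in wild type. For Acan the ratio of knock-out over wild type was 57.9 (40.5 to 86.0). The matricellular gene Smoc1 rose in both clones (log2 5.34 ± 0.67; 4.67 in clone 2.9 and 5.80 in clone 2.10). So did the microfibril protein Fbn1 (log2 2.93 ± 0.22; 2.76 in clone 2.9 and 3.07 in clone 2.10) and the collagen VI genes Col6a1 (log2 2.46 ± 0.37) and Col6a2 (log2 2.85 ± 0.29). Nid2 rose (log2 4.24 ± 1.04) and its relative Nid1 fell (log2 -3.53 ± 0.64), as did the proteoglycan gene Dcn (log2 -2.11 ± 0.41), each in both clones. Without wild type replicate 2 the number of matrix genes higher was 16, and the adjusted p of Nid2 was 0.0514. The fibroblast markers summed to 5.67 and 5.91 CPM in clone 2.9, 10.03 and 8.53 CPM in clone 2.10, and 5.42 and 5.52 CPM in wild type, with clone 2.9 just above wild type and clone 2.10 further above. Of 6 fibroblast markers tested, Pdgfra rose in both clones (log2 2.05 ± 0.29), Pdgfrb rose (log2 2.97 ± 1.00), in clone 2.10 alone by the test of each clone, and Dcn fell. Pdgfrb lost its call without replicate 1 of clone 2.10, without either wild type library or without clone 2.10 (adjusted p from 0.0542 to 0.183). Their part in the matrix rises was not tested. With duplicates summed per culture there were 10 higher and 7 lower among matrix genes, and 7 higher and 10 lower among guidance and adhesion genes. Guidance and adhesion genes were lower at 21 and higher at 13 of 51 (20 and 13 in both clones). The claudin gene Cldn6 had 0 counts in every knock-out library against 334 and 367 in wild type, at least 108-fold lower. The tight junction genes Cldn4 (log2 -2.12 ± 0.21) and Cldn1 (log2 -1.20 ± 0.20) fell in both clones. N-cadherin, Cdh2, held 312 and 222 counts in clone 2.9, 937 and 395 counts in clone 2.10, and 2 and 2 counts in wild type. For Cdh2 the ratio of knock-out over wild type was 253 (98.8 to 931).

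Mitosis and spindle genes were lower at 22 of 38 and higher at 0, with 20 lower in both clones. The list summed to 549.5 and 389.6 CPM in clone 2.9, 470.4 and 327 CPM in clone 2.10, and 763 and 730.3 CPM in wild type. All knock-out libraries lay below wild type, with the duplicates of each clone apart. The centromeric histone Cenpa (log2 -1.49 ± 0.11), the ubiquitin-conjugating enzyme Ube2c (log2 -1.27 ± 0.26), the checkpoint kinase Bub1b (log2 -1.25 ± 0.13) and the mitotic kinase Cdk1 (log2 -0.88 ± 0.14) fell in both clones. DNA replication genes were higher at 8 and lower at 7 of 49, both under the share over all genes, and 7 and 6 passed in both clones. With single libraries left out the number higher was 4 to 14, the most without replicate 2 of clone 2.10, and the number lower was 4 without wild type replicate 1. Their sum was 3176 and 2963 CPM in clone 2.9, 3338 and 2943 CPM in clone 2.10, and 2079 and 2139.7 CPM in wild type, above both wild type libraries in every knock-out library. The list holds the cyclin genes Ccnd1, Ccnd2 and Ccnd3, and part of the higher sum was theirs. Ccnd1 alone averaged 951 ± 91.4 CPM in knock-out and 559 ± 19.6 CPM in wild type (log2 0.77 ± 0.10). The median log2 fold change of the list was 0.27 in clone 2.9 and 0.06 in clone 2.10. A sum without the cyclins was not taken. Ccnd1 and Ccnd2 (log2 1.02 ± 0.08) rose in both clones. Of 33 p53 targets and cell cycle inhibitors 21 were lower and 3 higher, each of them in both clones. The inhibitor genes Cdkn1c (log2 -2.18 ± 0.21), Cdkn1b (log2 -0.81 ± 0.09) and Cdkn1a (log2 -0.69 ± 0.12) fell, and Cdkn2a rose (log2 2.02 ± 0.11; 1.93 in clone 2.9 and 2.10 in clone 2.10). Summing the duplicates of each culture gave 0 higher and 15 lower for mitosis genes, 4 higher and 3 lower for replication genes and 2 higher and 16 lower for p53 targets and inhibitors.

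Cytosolic ribosomal protein genes were lower at 56 of 60 and higher at 0, with 55 lower in both clones. The changes were small and alike, with a median of -0.33 in clone 2.9 and -0.36 in clone 2.10, and every knock-out sum lay below both wild type sums. The sums were 31935 and 34388 CPM in clone 2.9, 30749 and 35045 CPM in clone 2.10, and 42734 and 40082 CPM in wild type. Rps27 (log2 -0.65 ± 0.09) and Rps10 (log2 -0.60 ± 0.13) fell most, in both clones; genes of this list have processed copies that may share reads. Without wild type replicate 1 the count lower was 38, and with duplicates summed per culture it was 20. Glycolysis and hypoxia genes were lower at 22 of 38 and higher at 0, 21 of them in both clones. They included the vasodilator peptide gene Adm (log2 -1.66 ± 0.25; -1.44 in clone 2.9 and -1.92 in clone 2.10), the glucose transporter Slc2a1 (log2 -1.19 ± 0.13; -1.03 in clone 2.9 and -1.38 in clone 2.10), Vegfa (log2 -1.40 ± 0.23) and Hif1a (log2 -0.87 ± 0.09). Oxidative phosphorylation genes were lower at 18 and higher at 4 of 49, 14 and 4 in both clones, and without either wild type library the number lower was 10. Endoplasmic reticulum folding genes were higher at 3, each in both clones, and lower at 22 of 42, 20 in both clones, among them the chaperone Hspa5 (log2 -0.41 ± 0.06) and the stress factor Ddit3 (log2 -1.14 ± 0.23). Sterol and fatty acid synthesis genes were higher at 18 of 37 and lower at 5, 17 and 4 in both clones. Hmgcs1 (log2 0.81 ± 0.18), Fdps (log2 0.81 ± 0.29) and Mvk (log2 0.97 ± 0.18) of the mevalonate steps and the fatty acid synthase Fasn (log2 0.52 ± 0.11) rose in both clones. The sum was 5236 and 4496 CPM in clone 2.9, 5076 and 4235 CPM in clone 2.10, and 4049 and 4028 CPM in wild type, with the duplicates of each clone apart. With either wild type library left out, 11 of the genes were higher. With duplicates summed per culture there were 0 higher and 10 lower among glycolysis and hypoxia genes, 2 higher and 7 lower among oxidative phosphorylation genes, 1 higher and 10 lower among folding genes and 6 higher and 2 lower among sterol and fatty acid genes.

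**Figure D4:**
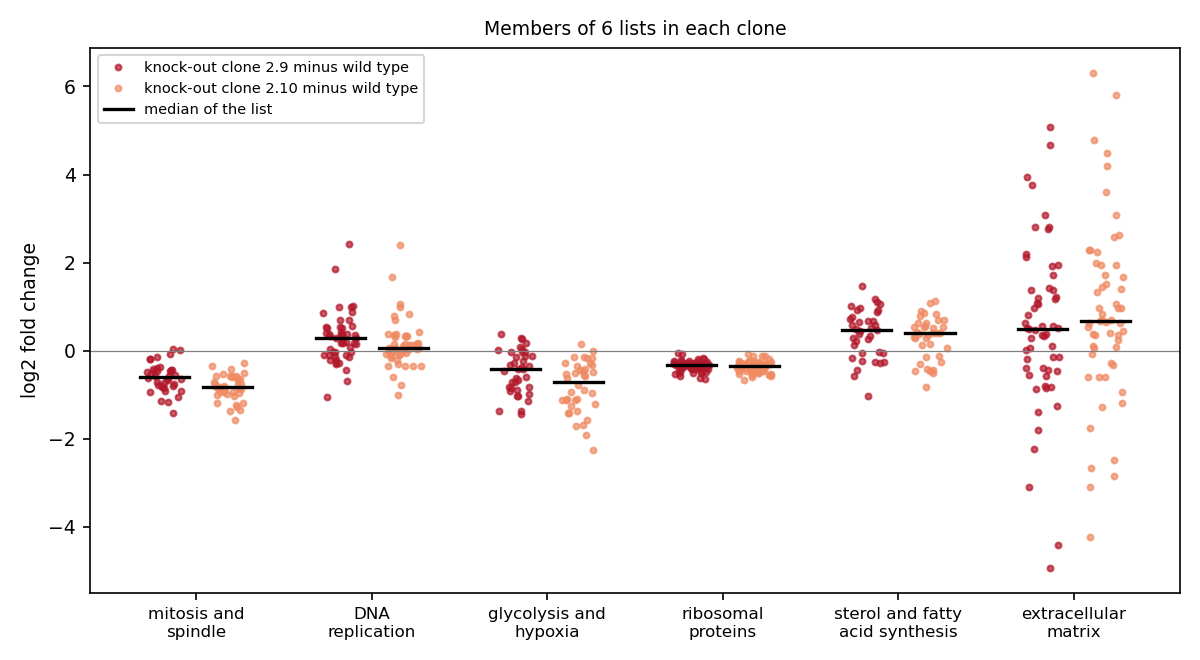
Log2 fold change against wild type of each tested member of 6 lists, in clone 2.9 (dark red) and clone 2.10 (orange); black bars are medians. Ribosomal protein genes form a narrow band just below 0 in both clones, mitosis and glycolysis genes lie mostly below 0, and matrix genes spread widest.

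Retinoid and xenobiotic genes were lower at 25 and higher at 10 of 50, 22 and 8 in both clones. The P450 gene Cyp1a1 held 4 and 6 counts in clone 2.9, 0 and 0 counts in clone 2.10, and 212 and 467 counts in wild type. For Cyp1a1 the ratio of wild type over knock-out was 125 (67.6 to 262). The retinaldehyde dehydrogenase Aldh1a1 rose (log2 2.14 ± 0.48; 2.32 in clone 2.9 and 1.92 in clone 2.10) along with Cyp26a1, and Cyp26b1 (log2 -1.29 ± 0.16) and the retinaldehyde reductase Dhrs3 (log2 -1.24 ± 0.10) fell, each in both clones. Without wild type replicate 1 the number higher was 6. Interferon and antigen presentation genes were lower at 16 of 56 and higher at 2, of which 16 and 0 passed in both clones. Without replicate 1 of clone 2.10 the number lower was 25. The median of that list was -0.59 in clone 2.9 and 0.11 in clone 2.10. B2m (log2 -0.69 ± 0.13; -0.81 in clone 2.9 and -0.58 in clone 2.10) and the class I gene H2-K1 (log2 -0.56 ± 0.06), which has close copies, fell in both clones. Chemokine and innate defence genes were lower at 20 and higher at 9 of 49 (18 and 8 in both clones). Cybb, the phagocyte NADPH oxidase subunit, gave 0.511 and 0.586 CPM in clone 2.9, 0.451 and 0.742 CPM in clone 2.10, and 53.4 and 84.3 CPM in wild type (log2 -6.91 ± 0.67). Ccl11, eotaxin, gave 0.527 and 0.792 CPM in clone 2.9, 0 and 0.0309 CPM in clone 2.10, and 23.04 and 34.1 CPM in wild type (log2 -6.41 ± 0.79). Both genes fell in both clones. The 10 immune markers summed to 2.03 and 2.49 CPM in clone 2.9, 1.68 and 2.70 CPM in clone 2.10, and 30.9 and 43.4 CPM in wild type. Cd68, a lysosomal protein of macrophages, gave 1.88 and 2.31 CPM in clone 2.9, 1.41 and 2.36 CPM in clone 2.10, and 14.4 and 13.3 CPM in wild type and fell in both clones (log2 -2.80 ± 0.18). Lyz2 alone gave 0 and 0 CPM in clone 2.9, 0 and 0 CPM in clone 2.10, and 16.2 and 29.8 CPM in wild type. The part of these markers in the falls of Lyz2 and Cybb was not tested; Ptprc, Adgre1 and Tyrobp had 0 counts in all 6 libraries. Immediate early genes were lower at 18 of 28, each of them in both clones, with Fosl1 (log2 -1.60 ± 0.39) and Jun (log2 -1.19 ± 0.10) as examples, and 4 were higher, 2 in both clones. Myc was among these (log2 0.60 ± 0.11; 0.64 in clone 2.9 and 0.55 in clone 2.10), and that number was 2 without replicate 1 of clone 2.9 or without either wild type library. Among 13 tested genes tied to Foxe1 in thyroid, palate or skin, 4 were higher and 4 lower, 2 and 4 in both clones. Those lower were Duox2, Duoxa2, Lor (log2 -0.99 ± 0.30) and Tgfb3 (log2 -0.59 ± 0.13), and those higher in both clones included Cyp26a1. The number higher was 2 without replicate 1 of clone 2.9 or without wild type replicate 2, and Lor lost its call without either wild type library (adjusted p = 0.0532 and 0.0984). Summing the duplicates of each culture gave 6 higher and 16 lower for retinoid and xenobiotic genes, 0 higher and 6 lower for interferon genes, 6 higher and 9 lower for chemokine and defence genes, 0 higher and 11 lower for immediate early genes and 2 higher and 0 lower for the genes tied to Foxe1.

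The clones differed from each other at 936 genes (5.64%), 497 higher (3%) and 439 lower (2.65%) in clone 2.10 than in clone 2.9. Of the 7965 called genes the clones differed at 435, which is 2.62% of the 16594 genes tested. With single knock-out libraries left out the number was 552 to 1032, the lowest without replicate 1 and 600 without replicate 2 of clone 2.9. The 71 genes that passed in opposite directions comprised 30 higher in clone 2.9 (0.181% of those tested) and 41 higher in clone 2.10 (0.247% of those tested). Tmc4, a channel-like membrane protein, gave 95.3 and 90.5 CPM in clone 2.9, 3.37 and 3.08 CPM in clone 2.10, and 69.3 and 67.7 CPM in wild type. For Tmc4 the clone difference was log2 -4.85 ± 0.07, adjusted p = 4.47e-15. Col5a2, a chain of collagen V, gave 205 and 185 CPM in clone 2.9, 16.0 and 14.8 CPM in clone 2.10, and 132 and 131 CPM in wild type. For Col5a2 the clone difference was log2 -3.66 ± 0.16, adjusted p = 1.71e-06. Upk3a, a uroplakin, gave 2.20 and 2.06 CPM in clone 2.9, 32.6 and 55.2 CPM in clone 2.10, and 5.55 and 5.48 CPM in wild type. For Upk3a the clone difference was log2 4.36 ± 0.25, adjusted p = 1.90e-06. At each of these genes wild type lay between the clones, so neither direction belonged to the knock-out as a whole. Susd2, Il1rl2, the receptor for interleukin 36, and Foxe1 were also higher in clone 2.9 and lower in clone 2.10 than in wild type. The reverse was found for Dkk3, a Dickkopf-family secreted protein, Plekhb1, the heparan sulfatase Sulf1 and the peptide transporter Slc15a2. For these 10 genes the mean difference of all knock-out libraries from wild type did not pass (adjusted p from 0.273 to 0.993). The myoepithelial markers summed to 69.5 and 62.1 CPM in clone 2.9, 206 and 251 CPM in clone 2.10, and 70.0 and 54.7 CPM in wild type, with clone 2.10 apart from clone 2.9 and wild type. Nearly all of that sum was the smooth muscle actin gene Acta2, with 65.3 and 57.8 CPM in clone 2.9, 200.1 and 246 CPM in clone 2.10, and 66.9 and 52.0 CPM in wild type, the 1 marker of the list that differed between the clones (log2 1.86 ± 0.38, adjusted p = 0.0453). Without Acta2 the list summed to 4.23 and 4.36 CPM in clone 2.9, 6.21 and 5.81 CPM in clone 2.10, and 3.10 and 2.70 CPM in wild type, above wild type in every knock-out library. Of the 6 markers tested, 1 was called higher in knock-out, Mylk, and 0 were called lower. Mylk reached 257 counts in a knock-out library against 41 in a wild type library. The median log2 fold change of the list was -0.15, so the list as a whole did not rise. The part of Acta2 in the clone differences was not tested.

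**Figure D5:**
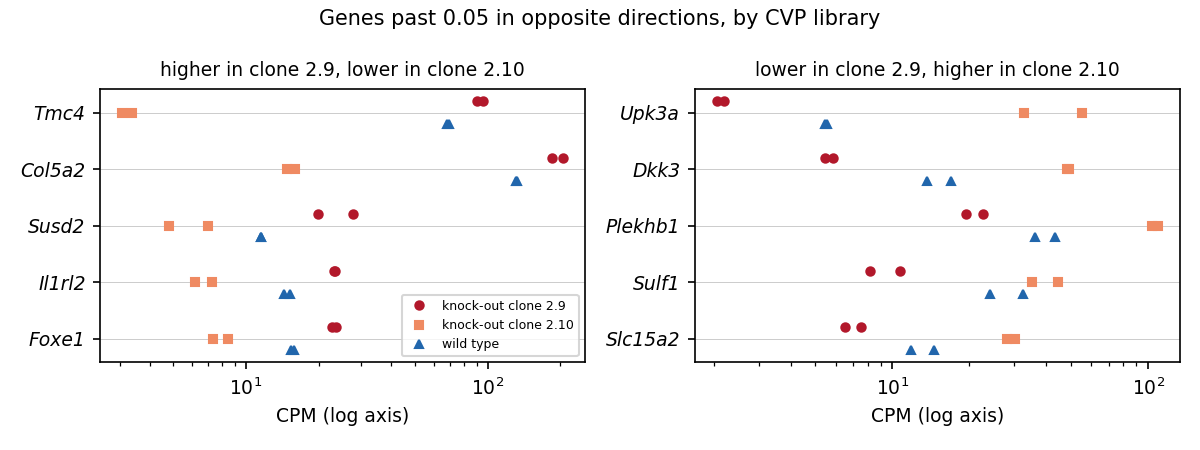
CPM on a log axis in each CVP library for the 10 genes with the largest clone difference among those past 0.05 in opposite directions; circles are clone 2.9, squares clone 2.10 and triangles wild type. Wild type lies between the clones for every gene shown, Foxe1 included.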

How the data were processed

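The deposited values were raw counts per gene, made by the authors with STAR and featureCounts and the hg38 genome, per the submitters' processing notes; no versions are given there. The gene symbols are mouse. Libraries were made from poly(A) RNA with a stranded TruSeq kit, per the labels' protocols. Whether reads were counted by strand is not given in the sources, so reads of overlapping and antisense genes cannot be told apart. In every CVP library more genes had 4 counts than 3, as when both mates of a pair are counted; intervals and the floor of 3 counts cover counting error only and would then be too narrow.

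Columns were matched to samples by title. Genes with 10 or more counts in at least 2 of the 6 CVP libraries were kept, scaled by TMM and fitted with edgeR 4.0.16 (R 4.3.3, quasi-likelihood, robust) over all 12 libraries, as 4 arms (line and genotype) for knock-out against wild type and as 6 cultures for each clone and for clone against clone, where the spread is that of duplicates alone. Benjamini-Hochberg adjustment ran over all 16594 genes with a threshold of 0.05. Each standard error was the log2 fold change divided by the square root of F, an approximation. CPM used the scaled totals, and log2 CPM a prior count of 2. Genes near 0 are given as a ratio of pooled counts over pooled scaled totals with a 95% interval.

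Named genes were called, passed in both clones with all 4 knock-out libraries beyond both wild type libraries, and had a mean log2 CPM of at least 2. Of these the 12 with the largest fold, the 8 with the largest CPM difference and the 8 transcription factor genes with the largest fold were named in each direction, besides the 5 in each direction at which the clones are opposite with the largest clone difference, and list members; predicted genes were counted only, and a few genes that the rule names are not reported here. Shox2 falls outside these rules, and it was named after its values were seen. The lists and the genes were chosen with earlier results of these data known. The fit was tested on simulated data: for knock-out against wild type it recovered 92 of 100 genes changed 2-fold and 100 of 100 changed 4-fold with 11 false calls among 16394 unchanged genes; for clone 2.9 it recovered 91 and 98 with 13 false calls, and for clone 2.10 92 and 99 with 14. The simulated libraries were independent, had the spread of duplicates and held no difference between clones. Changed genes were drawn only from those above a minimum mean log2 CPM. The simulation therefore cannot say how many calls in the real data come from differences between clones. Alternatives were DESeq2 1.42.0 size factors and Wald test, limma 3.58.1 voom with culture as block, other filters, other samples in the fit, summed duplicates, the replicate block, halved counts, a 2-fold threshold and each library or clone left out. Totals of 61561428 to 73568645 counts per CVP library give the depth.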

Additional observations from a re-analysis of the deposited data

Results flagged for a closer look

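Of the 180 genes named, 42 differed between clone 2.10 and clone 2.9 in the test of that difference (adjusted p under 0.05, edgeR's quasi-likelihood test over all 16594 genes), against 5.64% of all genes. The 42 include genes named for their clone difference, and the others were chosen by fold, level or list. That count and the share over all genes therefore cannot be compared. The values below are the log2 difference, clone 2.10 minus clone 2.9. Genes with opposite directions against wild type had differences of -4.85 for Tmc4, -3.66 for Col5a2, -2.02 for Susd2, -1.79 for Il1rl2 and -1.55 for Foxe1, which were higher in clone 2.9. Those higher in clone 2.10 had 4.36 for Upk3a, 3.10 for Dkk3, 2.33 for Plekhb1, 2.07 for Sulf1 and 2.05 for Slc15a2. Their choice by clone difference fixed these values.

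Among genes higher in knock-out, clone 2.10 was further from wild type at 16, with differences of 2.27 for Sdk2, 2.07 for Matn4, 1.59 for Vcam1, 1.57 for Shox2, 1.27 for Cdh2, 1.04 for Spon1, 0.94 for Scara5 and 0.59 for Foxf2. The smaller differences of this kind were 0.51 for Chrm3, 0.50 for Pde3a, 0.47 for Nkd2, 0.37 for Fst, 0.37 for Epdr1, 0.36 for Slc12a2, 0.34 for Clu and 0.29 for Thbs1. Clone 2.9 was further from wild type at 1, with -0.73 for Bbox1. Among genes lower in knock-out, clone 2.10 was further from wild type at 9, with differences of -5.76 for Otop1, -5.27 for Ccl11, -3.99 for Sprr2a3, -2.64 for Gp2, -2.51 for Ces1f, -1.94 for Aqp4, -1.90 for Msln, -1.63 for Wnt4 and -1.57 for Ces1d. Clone 2.9 was further from wild type at 4, with differences of 2.10 for Nid1, 0.86 for Spdef, 0.56 for Cyp26b1 and 0.36 for Tgfb3. These counts describe the chosen genes only. Over all genes, 3% were higher and 2.65% lower in clone 2.10 than in clone 2.9. Not called over all knock-out libraries, and higher than wild type in clone 2.10 alone by the test of each clone, were the genes with differences of 1.86 for Acta2 and 0.54 for Ltf. The differences of Otop1 and Ccl11 rest on few counts in clone 2.10 and depend on the prior count. Acta2, which carries the myoepithelial marker sum, and Foxe1 itself are among the genes that differ between the clones, and their part in these differences was not tested.

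Among the 4 knock-out libraries, 1 library lay apart from the other 3 at 3 genes by the ratio of gap to range (past Dixon's critical value), which chance alone gives in about 1 in 20 groups. The ratio was 1.0 for Fgf7 and 1.0 for Reg3g, where replicate 2 of clone 2.9 held 2 counts of Fgf7 and 4 counts of Reg3g and the other knock-out libraries 0. It was 0.845 for Tas1r3, with 1.07 and 1.01 CPM in clone 2.9, 1.04 and 0.711 CPM in clone 2.10, and 2.67 and 2.51 CPM in wild type.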

How the results depend on the processing

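The number of genes that differed between knock-out and wild type was 7965, and it was 7136 to 8307 with DESeq2 size factors, no filter, a filter of 1 CPM, the DESeq2 Wald test, the CVP libraries alone or halved counts. It was 6725 with limma voom and culture as block. A test against a 2-fold change gave 516 (265 higher, 251 lower), 658 in clone 2.9 (338, 320), 924 in clone 2.10 (475, 449) and 112 between the clones (57, 55); it asks for a larger change by construction. Duplicates summed per culture, which leave fewer samples, gave 3452 (1632, 1820). Without a filter the clone comparison gave 1494 (777, 717), and the cause was not tested. With single libraries left out the counts were 5272 to 7736 for knock-out against wild type (2577 to 3915 higher) and 552 to 1032 between the clones (258 to 538 higher, 272 to 494 lower). Leaving out clone 2.9 turned the sign of Il1rl2 (log2 -1.14) and Susd2 (log2 -0.97), genes at which the clones are opposite. Among genes with no call before or after, leaving out clone 2.10 turned the sign of Upk3a (log2 -1.37), Dkk3 (-1.43), Plekhb1 (-0.91), Slc15a2 (-0.91), Tmc4 (0.44), Col5a2 (0.57) and Foxe1 (0.57), and leaving out clone 2.9 that of Sulf1 (0.49). Of the 180 genes named, calls were lost for 53 with summed duplicates, 95 against 2-fold, 5 with voom, 3 with the CVP libraries alone, 1 without a filter and 1 with the replicate block, while no call was lost with DESeq2 size factors, the DESeq2 Wald test or halved counts.

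The duplicate numbers were tested as pairs. Differences between duplicates correlated at 0.499 for clones 2.9 and 2.10, at -0.127 for clone 2.9 and wild type and at -0.114 for clone 2.10 and wild type, across genes. The numbers thus went together between the clones and not with wild type. A step that the clones shared and wild type did not would be confounded with genotype, and its part was not tested. The correlations fall short of pairing all groups, so the samples are treated as sharing only a number. With the replicate block 7682 genes differed between knock-out and wild type, 7908 for clone 2.9, 8366 for clone 2.10 and 898 between the clones. There were 2 wild type libraries and 1 culture per clone, so the spread between cultures of a clone could not be measured. Halving the counts adds no sampling noise, so whether depth limited precision was not tested. Genes near the floor of 3 counts rest on few counts.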

Other observations

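The 8 nerve and glia markers summed to 6.51 and 4.53 CPM in clone 2.9, 3.88 and 2.33 CPM in clone 2.10, and 2.06 and 1.57 CPM in wild type, so every knock-out library was above both wild type libraries. Tubb3, a neuronal tubulin, was the gene of that list with the largest change (log2 2.82 ± 0.60; 3.29 in clone 2.9 and 2.12 in clone 2.10), followed by the calcium-binding protein S100b (log2 2.33 ± 0.65), both called in both clones. S100b lost its call without wild type replicate 2 (adjusted p = 0.105) and without clone 2.10 (adjusted p = 0.0556), in edgeR's quasi-likelihood test. Elavl4 of the same list had 0 counts in all 6 libraries. Among the endothelial markers, Pecam1 was higher (log2 1.73 ± 0.35; 1.34 in clone 2.9 and 2.03 in clone 2.10) in both clones, Tek was lower (log2 -1.82 ± 0.51; -1.36 in clone 2.9 and -2.51 in clone 2.10), in clone 2.10 alone by the test of each clone, and Cldn5 was at 0 in all 6 libraries. Tek lost its call without wild type replicate 1 (adjusted p = 0.0948, edgeR). The list summed to 4.18 and 3.72 CPM in clone 2.9, 4.77 and 4.85 CPM in clone 2.10, and 3.71 and 4.34 CPM in wild type. Of the myoepithelial markers, the contractile kinase gene Mylk rose (log2 2.69 ± 0.26; 2.57 in clone 2.9 and 2.81 in clone 2.10), and of the skeletal muscle markers the actin gene Acta1 fell (log2 -3.11 ± 0.64), in a list whose sum was at most 1.34 CPM in any library.

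Predicted genes made up 3234 of the 16594 genes (19.5%) and 725 of the 7965 called. These had a Gm number, a Rik name, a -ps ending or an accession-like symbol, such as AC or BC before a run of digits. They were counted and not named.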
